A study of Mus musculus with 15 samples.

Results

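The replication-dependent histone genes are the genes that supply the histones H1, H2A, H2B, H3 and H4 for packing newly copied DNA. They were taken as all protein-coding genes of the GENCODE vM21 annotation (build mm10) whose symbol starts with Hist1h, Hist2h, Hist3h or Hist4h followed by the class number. The rule found 67 genes of the 55401 genes in the count tables: 6 H1, 18 H2A, 18 H2B, 12 H3 and 13 H4 genes. In 54 of them the symbol places the gene in the Hist1 cluster on chromosome 13, in 10 in the Hist2 cluster on chromosome 3, in 2 in the Hist3 cluster on chromosome 11, and in 1 (Hist4h4) on chromosome 6. All 67 had a count in at least 1 library, and 62 passed the filter on low counts and were tested among 21009 genes.

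The libraries were made from oocytes of Kunming mice, each from a pool of 6 oocytes amplified by SMART-Seq2, a method that primes reverse transcription on poly(A) tails. There were 15 libraries in 5 groups of 3. IVV oocytes had grown in vivo and were released from cumulus complexes punctured from antral follicles. IVG oocytes came from preantral follicles cultured for 10 days without neurotrophin-4 (NT-4, a ligand of the TRKB receptor), and IVG-NT oocytes from follicles cultured for the same time with it. The IVG day 6 and IVG-NT day 6 oocytes came from such cultures, without and with NT-4, at day 6. The series text gives 12 to 14 days as the age of the mice, which the study's methods state for those whose follicles were cultured. The methods name mouse ovaries of other ages beside the in vivo collection and do not say which mice gave the in vivo oocytes. The libraries of a group came from separate runs of the experiment, with no animal or litter named.

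Most mRNAs end in a poly(A) tail. The mRNAs of replication-dependent histones instead end shortly after a conserved stem-loop in their 3′ untranslated region, which is bound by the stem-loop binding protein SLBP. SLBP guides their processing, translation and decay, so that they are abundant during DNA replication and scarce otherwise in dividing cells. A growing oocyte is arrested in meiosis and does not replicate its DNA, but it stores histone mRNA for the embryo. Some of these genes also give longer transcripts with a poly(A) tail, and histones that are made outside S phase come from other genes, such as H3f3a and H3f3b, whose mRNAs carry a tail.

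Library totals lay between 5954262 and 55593251 counts. Counts of the annotated ribosomal RNA gene CT010467.1 took between 0.187% and 37.9% of a library. In 9 libraries this share was above 5%, and these are called rRNA-rich. They are replicate 3 of IVV and, from all 4 in vitro groups, the first and second replicates. The other 6 are called rRNA-poor. The kind is a property of the libraries and no group of the study, and because replicates 1 and 2 were rRNA-rich and replicate 3 rRNA-poor in all 4 in vitro groups, it can hardly be told apart from the replicate number there. IVG-NT day 6 replicates 1 and 2 were the shallowest libraries, at 5954262 and 7125348 counts, and 28 and 35 of the 67 histone genes had a count in them, against 50 to 64 in the other libraries. The 13 oocyte markers had counts in every library and summed to between 13807 and 23581 CPM. Gdf9, an oocyte growth factor, stood between 1831 and 5226 CPM and Figla between 6.65 and 94.9 CPM. CPM is counts per 1000000 counts of a library after TMM scaling. The 12 granulosa markers summed to between 48.2 and 299 CPM, and their highest values ran from 0.562 CPM for Amh to 119 CPM for Inha. The 5 macrophage markers summed to between 0 and 52.8 CPM. Which share of any histone mRNA came from such cells was not tested.

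The stem-loop was searched in the annotated transcripts of GENCODE vM21, within 200 bases after the stop codon. It was found in 44 of the 67 genes, starting between 22 and 59 bases after the stop codon with a median of 32. Of the 21076 other protein-coding genes with an annotated 3′ untranslated region, 2 held it in the same window (0.00949%). The 16-base element took 6 forms, and 26 genes shared 1 of them. The 4 genes shown are among those named in the results that follow. The capitals mark the 16 bases of the stem-loop, with 5 bases on each side, 5′ to 3′ on the gene's own strand.

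Hist2h3c2: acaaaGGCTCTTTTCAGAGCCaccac
Hist1h2ao: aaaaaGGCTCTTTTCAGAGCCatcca
Hist1h3c: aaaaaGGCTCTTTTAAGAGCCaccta
Hist1h4j: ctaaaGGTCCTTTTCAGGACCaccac

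Hist2h3c2 (chromosome 3, 96238108 to 96239127, minus strand) and Hist1h2ao (chromosome 13, 21810465 to 21810944, plus strand) carry the form shared by 26 genes. Hist1h3c (chromosome 13, 23744973 to 23745602, minus strand) carries a form found in 6 genes, and Hist1h4j (chromosome 13, 21735064 to 21735837, plus strand) one found in 2. The commonest form was found in H1, H2A, H2B and H3 genes, and the 11 H4 genes with an element carried 3 other forms. Of the 23 genes without it, 15 had an annotated 3′ untranslated region of at most 2 bases, so that no such region could be searched. In 22 genes the annotation runs more than 100 bases past the stem-loop, and 11 of these long forms had a poly(A) signal (AATAAA or ATTAAA, on the transcript's strand) in their last 50 bases, against 81.3% of the other protein-coding genes with over 100 bases of 3′ untranslated region.

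Many members are near copies of each other. All 13 H4 genes encode 1 identical protein, 9 of the 18 H2A genes share 1 protein, and 7 of the 12 H3 genes share 1. When each gene was read in windows of 100 bases, over 50% of the windows of 25 genes were also found in another gene, and under 20% in 22 genes. How the authors' counting divided reads between such copies is not known, so the values of single copies are less certain than those of Hist1h1a, Hist1h2aa and Hist1h4d, where 0% of windows were shared. Every one of the 18 H2A genes also overlaps another annotated gene, and the counting is not stated to use strand.

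Histone mRNA was a small part of every library. The 67 genes together took between 0.0173% and 0.0952% of the counts. Their summed level was 790.2 ± 56.6 CPM in IVV oocytes, 545 ± 276 CPM in IVG and 901 ± 165 in IVG-NT oocytes. At day 6 the sum was 518 ± 501 for IVG and 606 ± 454 for IVG-NT (SD, n = 3). The groups overlapped, and the spread within IVG day 6 was nearly as large as its mean. In pools of 6 oocytes, fewer oocytes with the mRNA and less of it in each oocyte cannot be told apart.

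Per kilobase of exon, the order of the genes by mean level over the 15 libraries began with Hist2h3c2 at 101 ± 139 CPM per kb (SD, n = 15), Hist1h2bc at 94.6 ± 77.8, Hist1h1a at 93.9 ± 103 and Hist1h2ao at 72.0 ± 136. These neighbours did not differ beyond their spread. The order changed with the kind of library. In the rRNA-rich libraries Hist2h3c2, Hist1h1a and Hist2h3b came first, at means of 168, 151 and 117 CPM per kb. In the rRNA-poor libraries Hist1h2ao, Hist1h2bc and Hist1h2aa came first, at 159, 159 and 95.9 CPM per kb, and Hist2h3c2 stood at rank 55 with 0.789 CPM per kb.

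The make-up of the histone mRNA was opposite in the 2 kinds of library. In the 6 rRNA-poor libraries H1 and H3 genes together gave between 3.27% and 11.8% of the summed histone level. In the 9 rRNA-rich libraries they gave between 57.0% and 92.0%, so no library of either kind fell in the range of the other. Few genes carried most of this in some libraries. In IVG replicate 1, Hist1h1a gave 176 of the 200.3 CPM of H1. The Hist2h3c2, Hist2h3c1 and Hist2h3b genes gave 439.9 of the 493 CPM of H3 there, and 20.7 of 58.3 CPM in IVG replicate 2. The summed level of all 67 genes did not separate the kinds, at 282 to 846 CPM in rRNA-poor and 177 to 1129 CPM in rRNA-rich libraries. The H1 sum lay between 11.2 and 25.1 CPM in rRNA-poor and between 26.2 and 219.7 CPM in rRNA-rich libraries. The kinds overlapped in the sums of H3 (11.9 to 59.1 CPM in rRNA-poor and 24.1 to 897 in rRNA-rich libraries), H2A (45.3 to 420.4 and 9.15 to 81.8) and H2B (185 to 357 and 35.4 to 353). The H4 sum lay between 29.1 and 102 CPM in rRNA-poor libraries and between 2.07 and 33.2 CPM in rRNA-rich ones, where only IVV replicate 3 reached the range of the rRNA-poor libraries.

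**Figure D1:**
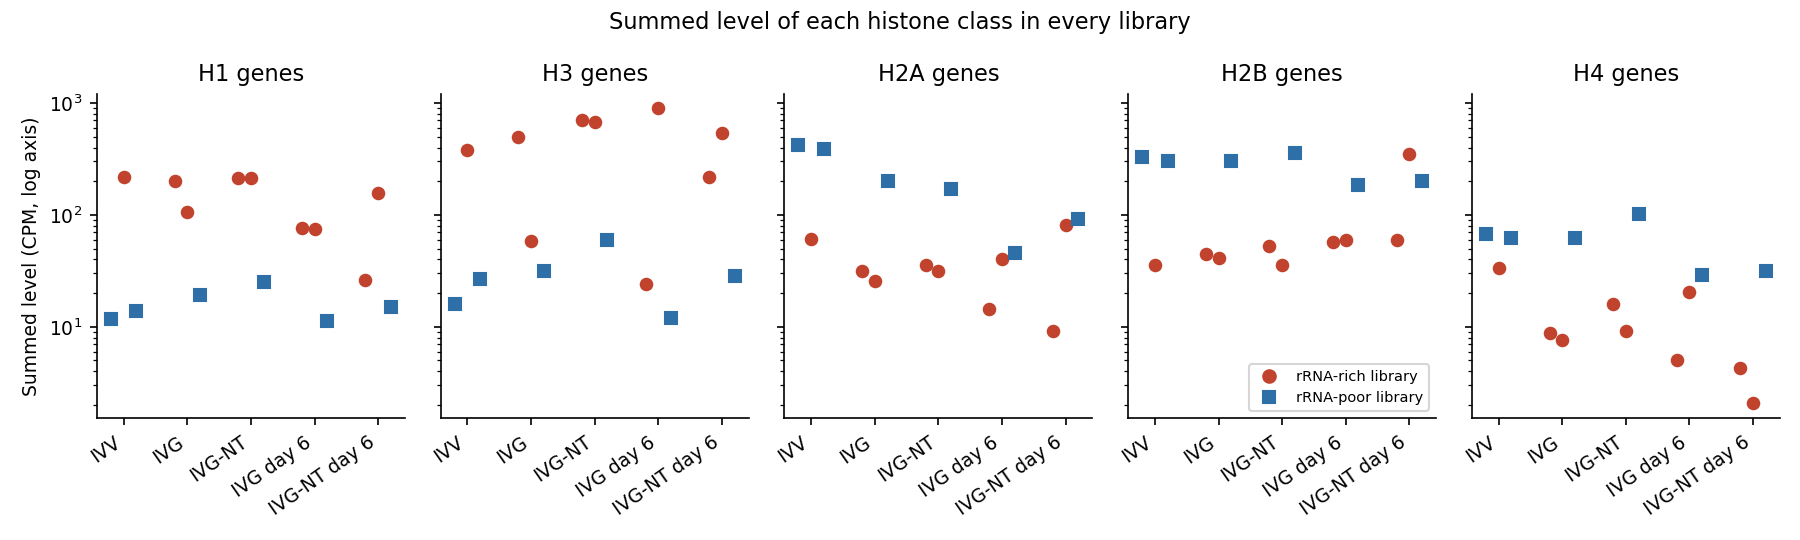
Summed level (CPM, log axis) of the genes of each histone class in every library, by group, with rRNA-rich libraries as red circles and rRNA-poor libraries as blue squares. H1 sums of the rRNA-rich libraries lie between 26.2 and 219.7 CPM and those of the rRNA-poor between 11.2 and 25.1 CPM, while most H2A, H2B and H4 sums of the rRNA-rich libraries lie below those of the rRNA-poor.

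The difference between the kinds was fitted for all genes with the group in the model (edgeR's quasi-likelihood test, Benjamini-Hochberg adjustment over 21009 genes). Here a gene is called at an absolute log2 fold change over 1 and an unadjusted p under 0.05, the study's own limits. Of the 62 tested histone genes, 5 were called higher in rRNA-rich libraries (8.06%, against 12.3% of all genes) and 30 lower (48.4%, against 22.8% of all genes). At an adjusted p under 0.05, 3 were higher (4.84%, against 8.41%) and 19 lower (30.6%, against 15.3%). The median log2 fold change was -1.89 over the tested histone genes and -0.54 over all genes tested. With DESeq2 size factors the medians were -2.08 and -0.71, and the counts of genes called were 5 and 30 again. The replicate number as a block can be told apart from the kind only through IVV replicates 2 and 3. With that block, 5 were called higher and 5 lower, and 2 passed the adjusted limit. The number past that limit rested on single libraries: leaving out replicate 3 of IVG-NT gave 5, replicate 3 of IVG 6, replicate 2 of IVG 12, and it was 13 without IVG day 6 replicate 3, and 14 without IVV replicate 2 or IVV replicate 4. The shares over all genes in these fits are not given here.

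By class, the direction differed, and with DESeq2 size factors each class median kept its sign. H3 had a median log2 fold change of 1.71, with 11 of 12 genes higher, and H1 one of 1.20, with 4 of 5 higher. H2A had a median of -1.78 with 14 of 16 lower, H2B one of -3.13 with 15 of 16 lower, and H4 one of -3.63 with all 13 lower. At an adjusted p under 0.05 stood 1 H1 and 2 H3 genes, all higher, and 2 H2A, 8 H2B and 9 H4 genes, all lower. The genes that went against their class were Hist1h1b, Hist1h3g, Hist1h2be, Hist1h2an and Hist1h2ak. Of these, Hist1h1b was called lower (log2 fold change -3.06 ± 1.10, adjusted p = 0.0566) and passed the adjusted limit with DESeq2 size factors and in DESeq2's Wald test, and the other 4 were not called.

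**Figure D2:**
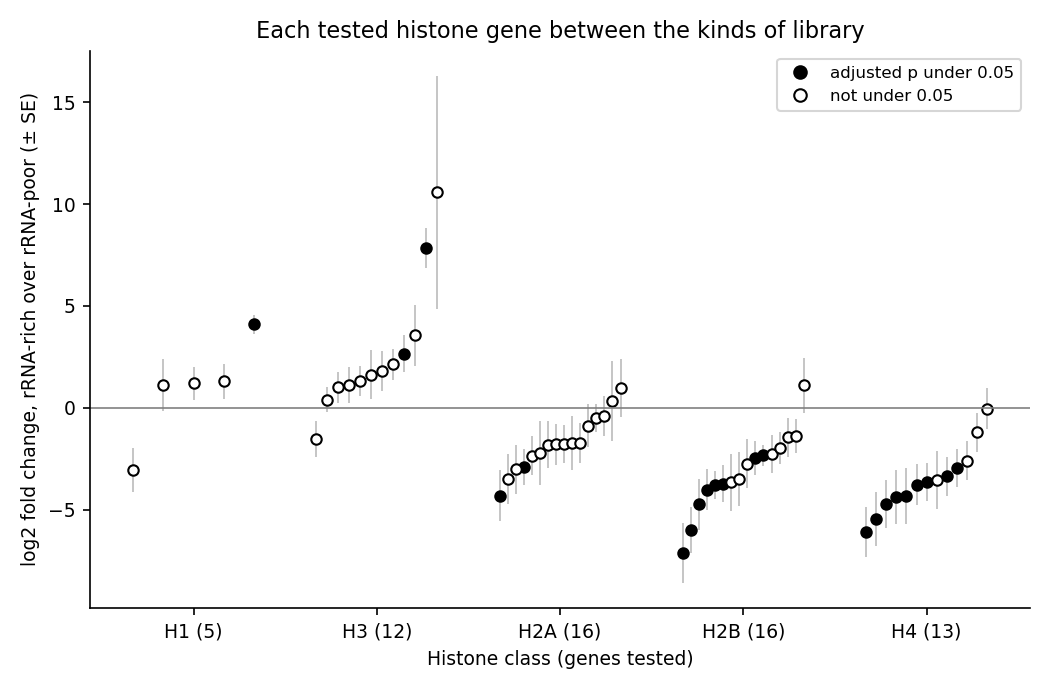
Log2 fold change of each tested histone gene between rRNA-rich and rRNA-poor libraries (points, with 1 standard error), by class, filled where the adjusted p was under 0.05. The H3 genes lie mostly above 0 (median 1.71), the H4 genes all below it (median -3.63).

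Linker histone H1 binds the DNA that enters and leaves the nucleosome. Hist1h1a was the leading H1 gene, and no stretch of it was shared with another gene. It stood at 189 CPM in IVV replicate 3 and at 3.66 and 5.73 CPM in the other IVV libraries. In IVG it stood at 176, 90.5 and 10.2 CPM in replicates 1 to 3, and in IVG-NT at 188, 185 and 9.87 CPM. At day 6 the values were 70.3, 46.0 and 3.33 CPM in IVG and 16, 45.6 and 3.82 CPM in IVG-NT. In every group the rRNA-poor libraries were the low ones, and all 9 rRNA-rich libraries lay above all 6 rRNA-poor ones. The log2 fold change between the kinds was 4.09 ± 0.45 (SE; adjusted p = 3.6e-05). Hist1h1e, the second H1 gene by level, ranged from 0 to 106 CPM in rRNA-rich and from 1.75 to 9.01 CPM in rRNA-poor libraries, so the kinds overlapped, and its difference did not pass (log2 fold change 1.13 ± 1.27, adjusted p = 0.561). It overlaps Hist1h2be on the same strand.

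Histone H3 forms the core of the nucleosome together with H4. Hist2h3c2 stood at 0.707, 279 and 0.303 CPM in IVV replicates 2, 3 and 4, at 439, 16.9 and 0.787 CPM in IVG and at 332, 128 and 1.67 CPM in IVG-NT. At day 6 it stood at 9.33, 131 and 0.161 CPM in IVG and at 56.0, 150 and 1.20 CPM in IVG-NT. Every rRNA-rich library was above every rRNA-poor one. Its log2 fold change was 7.85 ± 0.97 (adjusted p = 8.16e-05). Hist1h3c was far scarcer, at means of 1.05 and 0.235 CPM in the 2 kinds, and overlapped between them (log2 fold change 2.65 ± 0.91, adjusted p = 0.0483). Hist1h3b, at 9.07 and 1.99 CPM, missed the adjusted limit (2.14 ± 0.76, adjusted p = 0.0542). Of the 62 tested genes, Hist1h1a and Hist2h3c2 alone had all 9 rRNA-rich libraries above all 6 rRNA-poor ones (3.23%, against 2.88% of all genes), and both held their adjusted call in each of the 22 other fits made. The other 20 genes past the adjusted limit lost it in at least 1 of those fits. Hist1h3c kept it in 3 of 22 fits, Hist1h4m in 5 of 21, Hist1h2bj in 6 of 22 and Hist1h4a in 9 of 22.

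Histones H2A and H2B form the dimers on the outer faces of the nucleosome core. Hist1h2bc was the most abundant H2B gene. It stood at 236, 17.2 and 201 CPM in IVV replicates 2, 3 and 4, at 23.1, 24.0 and 183 CPM in IVG and at 32.3, 17.7 and 203 CPM in IVG-NT. At day 6 it stood at 47.9, 53.9 and 129.7 CPM in IVG and at 55.3, 268 and 148 CPM in IVG-NT. In every group but IVG-NT day 6, where the shallow replicate 2 was the highest, the rRNA-poor libraries were the high ones (log2 fold change -2.33 ± 0.52, adjusted p = 0.00607). Hist1h2bk fell by 3.81 ± 0.68 (adjusted p = 0.0014), Hist1h2bq by 5.99 ± 1.14 (adjusted p = 0.00211) and Hist3h2ba by 3.72 ± 0.91 (adjusted p = 0.00975), and for each of these 3 genes all rRNA-rich libraries lay below all rRNA-poor ones. Hist1h2bm had no count in any rRNA-rich library and 153 counts over the rRNA-poor ones, which makes it at least 34.2-fold lower in the rRNA-rich libraries against a floor of 3 counts over those libraries. The other H2B genes past the adjusted limit were Hist1h2br, Hist1h2bg and Hist1h2bj, with log2 fold changes of -4.02, -4.74 and -2.47.

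Hist1h2ba and Hist1h2aa lie next to each other on chromosome 13 (23933773 to 23934156 and 23934462 to 23934851) and encode the H2B and H2A variants first known from testis and also made in oocytes. Hist1h2aa stood at 33.8, 8.07 and 38.5 CPM in IVV replicates 2, 3 and 4, at 9.98, 5.72 and 40.5 CPM in IVG, and at 9.62, 9.21 and 42.8 CPM in IVG-NT. It stood on day 6 at 4, 14.0 and 16.2 CPM without NT-4 and at 0.718, 0 and 52.7 CPM with it. The rRNA-poor libraries were the highest of every group, and all rRNA-rich libraries lay below all rRNA-poor ones (log2 fold change -2.92 ± 0.88, adjusted p = 0.0273). It kept the adjusted call in 11 of 22 other fits. The adjusted p in edgeR was 0.413 with the replicate number as a block, 0.077 without the IVV group, and between 0.0522 and 0.0828 without 1 of 9 single libraries. The neighbour Hist1h2ba differed less, at means of 4.83 CPM in rRNA-rich and 9.56 CPM in rRNA-poor libraries (-1.44 ± 0.96, adjusted p = 0.303). The other H2A gene past the limit was Hist1h2ae (-4.31 ± 1.24, adjusted p = 0.0221).

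Histone H4 had no gene on the higher side in the rRNA-rich libraries. Hist1h4a stood at 13.2, 4.52 and 11.4 CPM in IVV replicates 2, 3 and 4, at 2.04, 1.22 and 12.6 CPM in IVG and at 4.53, 1.61 and 25.6 CPM in IVG-NT. At day 6 it stood at 0.930, 4.70 and 5.20 CPM in IVG and at 0, 0 and 6.06 CPM in IVG-NT, so again the rRNA-poor libraries were the high ones of each group. The 2 leading genes, Hist1h4a and Hist1h4h, stood at means of 2.17 and 1.24 CPM in rRNA-rich and 12.3 and 10.7 CPM in rRNA-poor libraries (log2 fold changes -2.96 ± 0.92 and -3.78 ± 1.01, adjusted p = 0.0319 and 0.016). For both, and for Hist1h4j (-6.10 ± 1.24, adjusted p = 0.00322), all rRNA-rich libraries lay below all rRNA-poor ones. Hist1h4c, Hist1h4d, Hist1h4i, Hist1h4m and Hist1h4n also passed, with log2 fold changes between -4.73 and -3.37. Hist1h4f held 1 count over the rRNA-rich and 82 over the rRNA-poor libraries, a 54.9-fold difference with an exact 95% counting interval from 9.58 to 2195, which like the floors used here covers counting error only. The 2 H4 genes that were not called, Hist2h4 at -0.04 ± 1.02 and Hist4h4 at -1.20 ± 0.96, lie outside the Hist1 cluster (adjusted p = 0.984 and 0.399). In all, 10 of the 62 tested genes had every rRNA-rich library below every rRNA-poor one (16.1%, against 10.3% of all genes): 6 H2B, 3 H4 and 1 H2A genes.

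**Figure D3:**
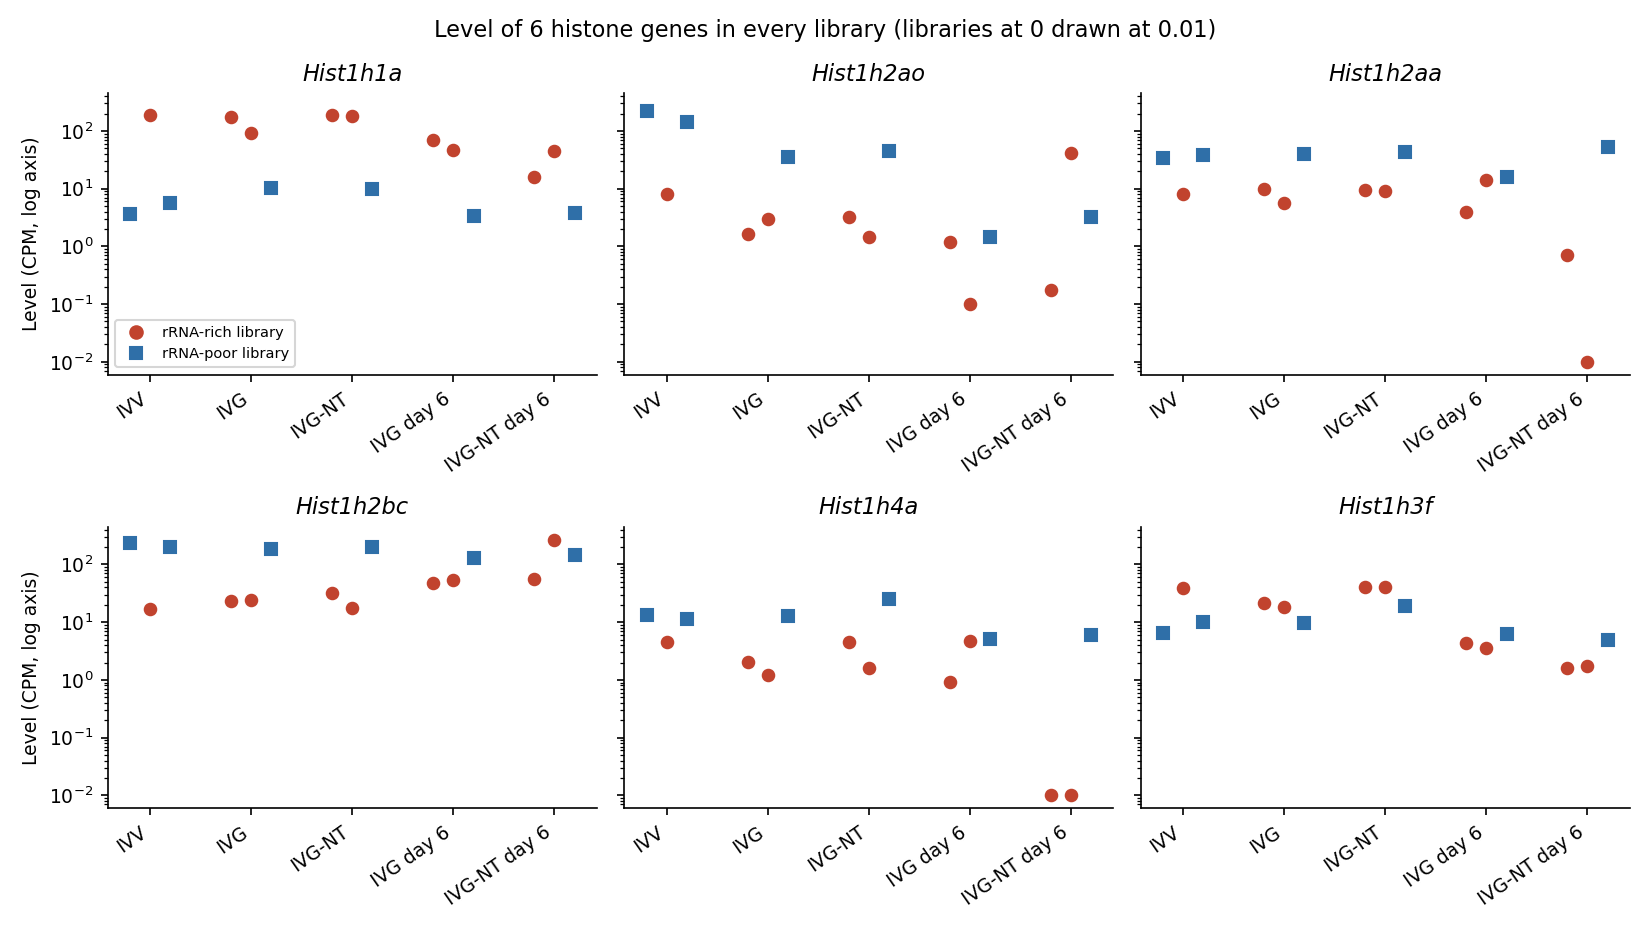
Level (CPM, log axis) of 6 histone genes in every library, by group, with rRNA-rich libraries as red circles, rRNA-poor libraries as blue squares, and libraries at 0 drawn at 0.01. Hist1h1a lies higher in the rRNA-rich libraries (16 to 189 CPM against 3.33 to 10.2 CPM) and Hist1h2aa lower (0 to 14.0 against 16.2 to 52.7 CPM).

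The presence of an annotated stem-loop divided the genes less clearly than the class did. Genes with an annotated stem-loop and those without had almost the same median log2 fold change between the kinds, -1.89 over 42 and -1.88 over 20 genes. Among those with it, the 21 tested genes with a long form had a median of -0.51 and the 21 without a long form one of -2.61. Coding length ran in the order H1 (median 651 bases), H3 (411), H2A (393), H2B (381) and H4 (312). Across the 62 tested genes, Spearman's rho between coding length and log2 fold change was 0.67 and Pearson's r 0.42. Genes of a class share their sequence and length, so these are not 62 independent points, and coding length can hardly be told apart from class. Between coding GC content and log2 fold change rho was 0.29. Over all genes tested, the median log2 fold change ran from -2.54 for the 1271 genes with up to 500 bases of exon to 0.43 for the 8668 with more than 4000 bases, and the 25 histone genes of up to 500 bases had a median of -2.47. From 500 to 1000 bases the medians were -2.65 over 20 histone genes and -2.45 over all genes. From 1000 to 2000 bases they were 0.76 over 10 histone genes and -1.74 over all genes, and from 2000 to 4000 bases -1.76 over 5 and -0.73. The 2 histone genes above 4000 bases had a median of 1.15.

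The 3 H3 genes of the Hist2 cluster, Hist2h3c2, Hist2h3c1 and Hist2h3b, could not be told apart with certainty. Of their 100-base windows, 61.6%, 100% and 77.1% were also found in other genes. Replicate 1 of IVG-NT gave 10324 counts of Hist2h3b, IVG-NT day 6 replicates 1 and 2 gave 365 and 852, replicate 4 of IVV gave 18, and the other 11 libraries gave 0. Of Hist2h3c1, 13914 counts came from replicate 2 of IVG-NT and 14484 from replicate 2 of IVG day 6, and at most 1293 in any other library. Hist2h3c2 had 15739 counts in IVG replicate 1 and 11369 in IVG-NT replicate 1. All of these but the 18 counts of Hist2h3b were in rRNA-rich libraries, and libraries of 1 group differed in which copy was high.

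**Figure D4:**
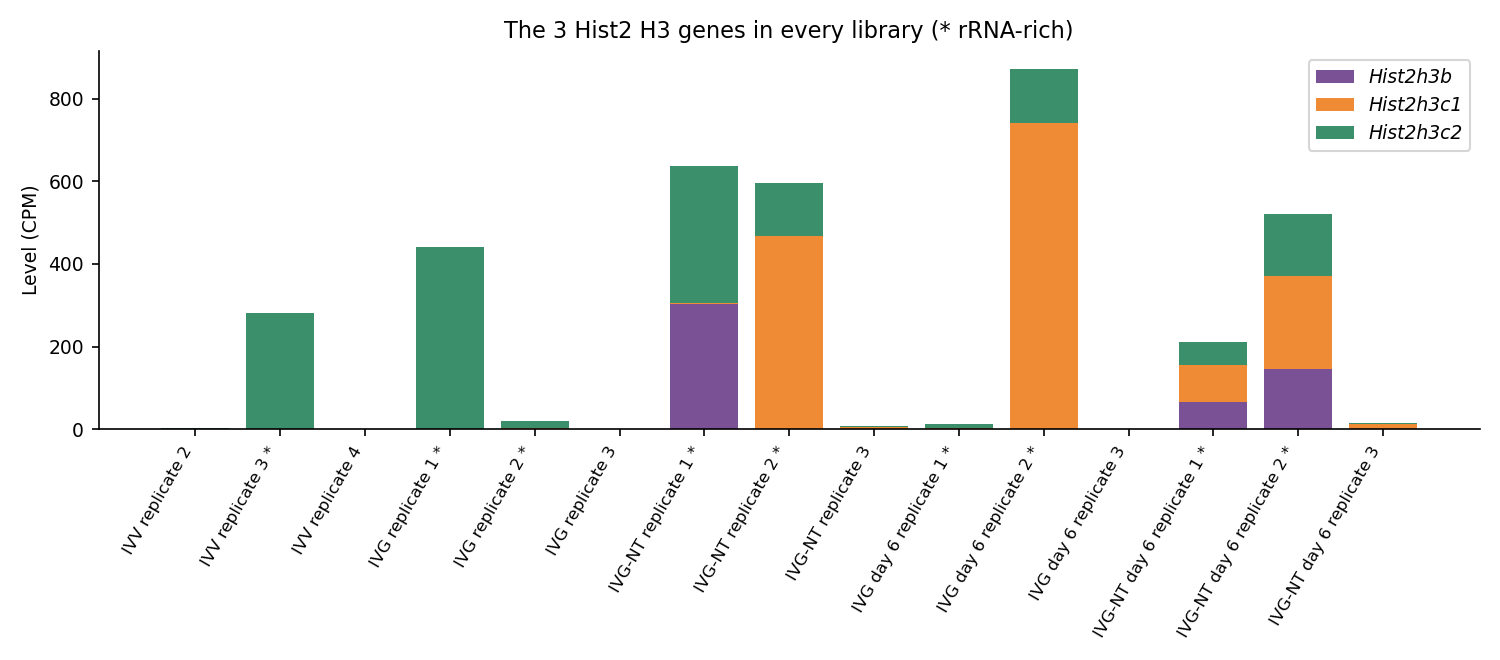
Level (CPM) of the 3 near-identical Hist2 H3 genes in every library, stacked, with rRNA-rich libraries marked by a star. The sum reaches 871 CPM in IVG day 6 replicate 2 and stays at or under 14.2 CPM in every rRNA-poor library, and the gene that carries it changes between libraries of a group.

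Summed over the 3 copies, the level was 94.8 ± 161 CPM in IVV oocytes, 154 ± 248 CPM in IVG and 414 ± 352 in IVG-NT oocytes. At day 6 it was 295 ± 499 CPM for IVG and 249 ± 255 for IVG-NT (SD, n = 3). The groups overlapped throughout. Within the rRNA-rich libraries the sum was 281 CPM in IVV, 439.9 and 20.7 in IVG and 638 and 596 in IVG-NT. At day 6 it was 12.0 and 871 CPM for IVG and 212 and 521 for IVG-NT. Both IVG-NT values were the highest of the day 10 and IVV libraries, but the IVG values lay far apart.

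The 6 comparisons of groups share libraries: IVV is the control of the first and second, and IVG and IVG-NT stand in 3 each, so their values are not independent. With DESeq2 size factors the median over all genes moved by over 0.1 in 4 of them, to -0.39 for IVG against IVV, -0.36 for IVG-NT against IVV, 0.00 for IVG-NT day 6 against IVG day 6 and 0.04 for IVG-NT against IVG-NT day 6. The comparison of IVG with IVV oocytes asks how growth in culture differs from growth in the ovary. None of the 62 tested histone genes was called, against 2.76% of all genes, and none had an unadjusted p under 0.05 (edgeR). No gene of all 21009 passed the adjusted limit of edgeR in this or any other comparison of groups. Between 261 and 2661 genes a comparison had an unadjusted p under 0.05, and DESeq2 put between 51 and 679 past its adjusted limit. DESeq2's Wald test called 2 histone genes lower, of which Hist2h3b passed its adjusted limit. The median log2 fold change was -0.77, with 49 genes lower and 13 higher, beside a median of -0.20 over all genes. All 13 H4 genes were on the lower side, with a median of -0.92, but 5 were higher once the kind entered the fit as a covariate. Within the rRNA-poor libraries 6 of the 13 were higher in IVG (median -0.04) and within the rRNA-rich ones 5 (median -0.42). The IVV group held 2 rRNA-poor libraries and the IVG group 1. Within the rRNA-poor libraries (1 IVG, 2 IVV) the median was 0.02, with 34 of 62 genes higher in IVG, and within the rRNA-rich libraries (2 IVG, 1 IVV) it was -0.52. Without IVV replicate 3 the fit called 2 histone genes and without IVG replicate 3 it called 4. The shares over all genes in fits without 1 library are not given, here or below. Such counts are therefore not read as particular to the histone genes.

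Hist1h2ao, the leading H2A gene, had its highest levels in IVV. It stood at 226, 8.19 and 146 CPM in IVV replicates 2, 3 and 4, at 1.67, 3.04 and 36.0 CPM in IVG and at 3.28, 1.48 and 45.9 CPM in IVG-NT. Within each kind of library the IVV values were above those of both day 10 groups. Its copy Hist1h2ap, which shares 92.2% of its windows with other genes, stood at 51.6, 3.91 and 101 CPM in IVV and at 1.06, 0.924 and 29.6 CPM in IVG, in the same order within each kind. On the scale of log2(CPM + 0.5), the IVG mean of Hist1h2ao was lower than that of IVV by -2.35 within the rRNA-poor and -1.60 within the rRNA-rich libraries. Neither gene was called over all libraries.

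IVG-NT against IVV, with the same controls, called 2 genes, both higher in IVG-NT and both copies of the Hist2 H3 genes, against 3.29% of all genes. Hist2h3c1 had a log2 fold change of 6.89 ± 2.30 (adjusted p = 1 in edgeR) and Hist2h3b one of 9.55 ± 3.84 (adjusted p = 1 in edgeR). Each rested on 1 library. Without IVG-NT replicate 2 the Hist2h3c1 value was 1.74, and without IVG-NT replicate 1 the Hist2h3b value was -5.29. The median over the histone genes was -0.41, beside -0.19 over all genes, and -0.01 with the kind as a covariate and -1.0 with the replicate block. Within the rRNA-poor libraries (1 IVG-NT, 2 IVV) it was 0.19, with 37 of 62 genes higher in IVG-NT, and within the rRNA-rich ones (2 IVG-NT, 1 IVV) -0.38, with 23 higher. Without IVG-NT replicate 3 the fit called 5 genes, and without IVG-NT replicate 1, IVG-NT replicate 2 or IVV replicate 2 it called 1.

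The effect of NT-4 at day 10 was read from IVG-NT against IVG. Hist2h3c1 and Hist2h3b were called higher, against 1.24% of all genes called. Hist2h3c1 had a log2 fold change of 6.48 ± 2.26 (adjusted p = 1 in edgeR). Hist2h3b, at 0 counts in all IVG libraries, was at least 4420-fold higher in IVG-NT against a floor of 3 counts over the IVG group, and all of its counts were in IVG-NT replicate 1. That bound is for the counts given to this copy, which could not be told apart from the other Hist2 H3 genes. Summed over these copies, the groups overlapped, at 414 ± 352 CPM in IVG-NT and 154 ± 248 CPM in IVG (SD, n = 3). Without IVG-NT replicate 2 the value of Hist2h3c1 was 1.36 and only Hist2h3b was called, and without IVG-NT replicate 1 only Hist2h3c1 was. All 12 H3 genes and 10 of 13 H4 genes were on the higher side, with medians of 0.83 and 0.73, against a median of 0.29 over the histone genes and 0.01 over all genes. With DESeq2 size factors 11 of 12 H3 genes were. The median over the histone genes rested on single libraries, at -0.86 when replicate 3 of IVG-NT was left out and 1.49 when replicate 3 of IVG was. The 2 rRNA-poor libraries gave medians of 0.68 for H3 and 0.69 for H4 (1 library a group), and the 4 rRNA-rich ones 0.63 and 0.24.

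At day 6, IVG-NT against IVG called 3 histone genes, against 11.6% of all genes. Hist2h3b, with 0 counts in all IVG day 6 libraries and 1217 over the IVG-NT day 6 libraries, was at least 643-fold higher with NT-4. That bound is for the counts given to this copy, which could not be told apart from the other Hist2 H3 genes. Summed over these copies, the level was 249 ± 255 CPM with NT-4 and 295 ± 499 CPM without (SD, n = 3). Hist1h2ao was higher by 4.01 ± 1.85 (adjusted p = 0.422 in edgeR), at 0.179, 41.1 and 3.22 CPM with NT-4 and 1.18, 0.102 and 1.45 CPM without, so the groups overlapped. Hist1h2br had 2 counts with NT-4 and 472 without, a 149-fold difference with an exact 95% counting interval from 41.0 to 1232 (adjusted p = 0.384 in edgeR). Of the 472 counts, 434 were in IVG day 6 replicate 3. The fold is for the counts given to this copy, which shares 86.4% of its windows with other genes, most with Hist1h2bq. In replicate 3, Hist1h2bq had 387 counts with NT-4 and 679 without. The 2 shallow libraries held the high values of the first 2 genes and no count of Hist1h2br. Without both of them no histone gene was called, beside 738 of 27377 over all genes. Without IVG-NT day 6 replicate 1 alone 6 were, without replicate 2 alone 1, and without replicate 3, which leaves the 2 shallow ones, 14. The shares over all genes without 1 library are not given, so the 14 is not read as particular to the histone genes. The median was 0.11 over the histone genes and -0.27 over all genes. Its sign turned with the setting, at -0.32 with the replicate block, -0.44 with the kind as a covariate and -0.66 in the rRNA-rich libraries alone, and it was 0.40 with DESeq2 size factors. Without IVG-NT day 6 replicate 3 it was -1.05. Markers of macrophages moved in the same comparison: their sum was 0 to 52.8 CPM with NT-4 and 0 to 1.48 CPM without, with Csf1r and Lyz2 of the 4 tested called higher and Ptprc at 0 in all 6 libraries. Of 8 theca and stroma markers Dcn was called higher, and of 11 granulosa markers Hsd17b1 and Fshr were called lower. With NT-4, Csf1r stood at 16.4 ± 28.1 CPM, Lyz2 at 1.32 ± 2.28 and Dcn at 2.43 ± 4.22 (SD, n = 3), each with an SD above its mean. The part of such cells in the histone values was not tested. The edgeR test of whether the NT-4 effect differed between day 10 and day 6 gave an adjusted p of at least 0.664 for every histone gene, and 2 had an unadjusted p under 0.05.

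Day 10 against day 6 asks what happens during the later days of culture. In IVG, 53 of the 62 tested histone genes were on the higher side at day 10 and 8 on the lower, with a median log2 fold change of 1.20 beside 0.05 over all genes. H2A had the largest class median, 2.42, followed by H1 at 1.21, H2B at 1.06, H3 at 0.69 and H4 at 0.54. Few of these passed the call: 1 higher and 1 lower, against 2.90% of all genes. Hist1h2ao was higher by 3.88 ± 1.83 (adjusted p = 1 in edgeR), at 1.67, 3.04 and 36.0 CPM against 1.18, 0.102 and 1.45 CPM, so all day 10 values lay above all day 6 values. Hist2h3c1 was lower by -7.12 ± 2.32 (adjusted p = 1 in edgeR), and this rested on IVG day 6 replicate 2, without which its value was -0.20 and no histone gene was called. With the replicate number as a block, only Hist2h3c1 was called. DESeq2's Wald test called 7 higher and 1 lower, with Hist2h3c1 past its adjusted limit. Without IVG replicate 1, or without IVG replicate 2, 4 genes were called, and without IVG replicate 3 or IVG day 6 replicate 1, 1. The median was 0.02 without IVG replicate 3. Markers of other cells moved in this comparison too. Of 11 granulosa markers 9 were on the higher side and 1, Inhba, was called, with sums of 98.6 to 299 CPM at day 10 and 54.0 to 136 CPM at day 6. The 8 theca and stroma markers had a median of 4.19 with 7 higher and none called (0 to 39.3 against 0 to 12.0 CPM). The 4 macrophage markers had a median of 4.0, all higher and none called (1.06 to 4.53 against 0 to 1.48 CPM). The part of such cells in the histone values was not tested.

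The day effect of IVG differed in size between the kinds of library. In the rRNA-poor pair (1 library a day) 57 of 62 genes were higher at day 10, with a median log2 ratio of 0.92 beside 0.00 over all genes. In the rRNA-rich libraries (2 a day) 39 were higher, with a median of 0.16 beside 0.02. All 16 H2A genes were higher in the rRNA-poor pair, with a median of 1.92, against 10 of 16 and a median of 0.19 in the rRNA-rich libraries. The difference between the kinds was not tested.

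**Figure D5:**
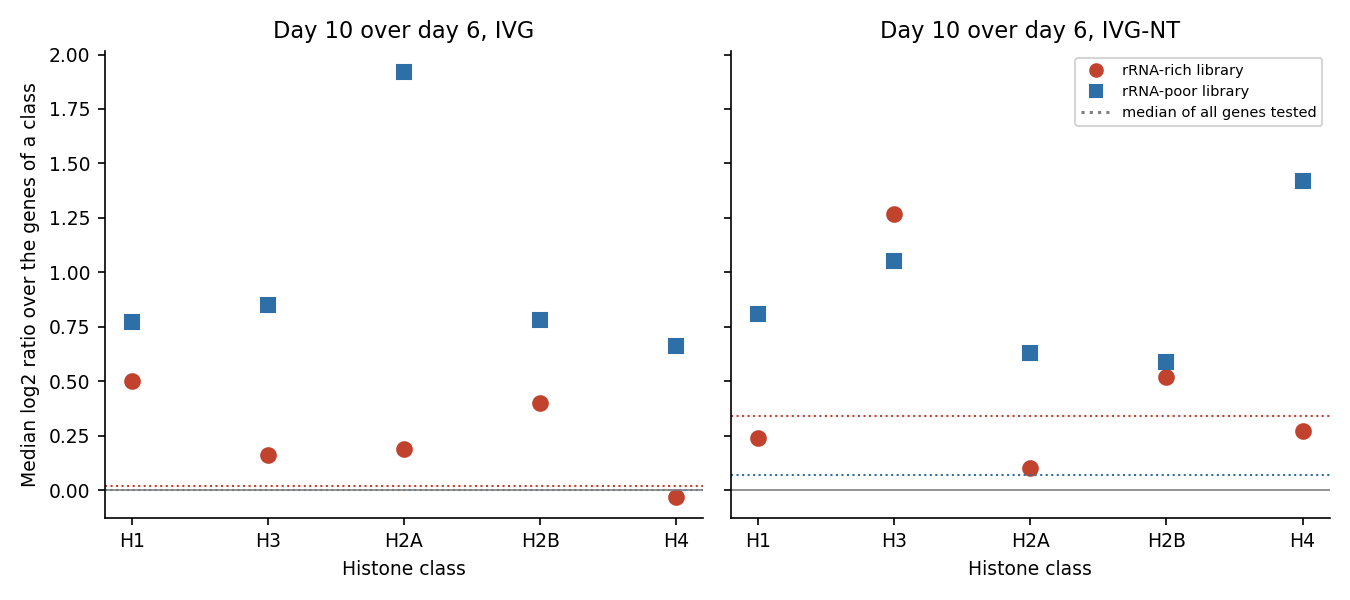
Median log2 ratio of day 10 over day 6, on the scale of log2(CPM + 0.5), over the genes of each histone class, within rRNA-rich (red circles) and rRNA-poor (blue squares) libraries, for IVG and IVG-NT, with dotted lines at the median of all genes tested. The rRNA-poor medians lie above 0 in every class, between 0.66 and 1.92 in IVG and between 0.59 and 1.42 in IVG-NT.

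In IVG-NT, 56 of the 62 genes were on the higher side at day 10, with a median of 1.04 (1 with genes that had no count on 1 side set to their bound), beside 0.40 over all genes. With DESeq2 size factors 48 genes were on the higher side, and the medians were 0.75 and 0.04. H4 and H3 had the largest class medians, 2.10 and 1.61. The 2 called genes, against 12.7% of all genes, were both higher. Hist1h3f stood at 40.7, 40.4 and 19.3 CPM at day 10 and 1.62, 1.73 and 4.91 CPM at day 6, with no overlap (log2 fold change 3.59 ± 1.06, adjusted p = 0.357 in edgeR). Within the rRNA-rich libraries its log2 ratio was 4.24 and in the rRNA-poor pair 1.87. Hist1h2br had 934 counts at day 10 and 2 at day 6, a 319-fold difference with an exact 95% counting interval from 88.1 to 2639 (adjusted p = 0.357 in edgeR), of which 885 were in IVG-NT replicate 3. Hist1h2br shares 86.4% of its windows with other genes, with Hist1h2bq the gene it shares most with. In replicate 3, Hist1h2bq had 1164 counts at day 10 and 387 at day 6. Without the 2 shallow libraries Hist1h3f alone of the histone genes was called, beside 657 of 27377 over all genes. Without IVG-NT day 6 replicate 3 the fit called 15 histone genes, and the share over all genes in that fit is not given here. In the rRNA-poor pair, 52 of 62 genes were higher at day 10, with a median of 0.85 beside 0.07, and in the rRNA-rich libraries 44, with a median of 0.45 beside 0.34. Without IVG-NT replicate 3 the median of all libraries was 0.08. The 11 granulosa markers had a median of 2.98, with Inhba, Fshr, Inha and Hsd17b1 called higher and Wt1 lower, and their sums were 121 to 244 CPM at day 10 and 48.2 to 233 CPM at day 6. Of the 4 macrophage markers Csf1r was called lower (sums 0.965 to 5.09 against 0 to 52.8 CPM), and none of 8 theca and stroma markers was called (0.731 to 5.24 against 7.72 to 32.5 CPM). At day 6, Csf1r stood at 16.4 ± 28.1 CPM and Wt1 at 16.1 ± 27.9 CPM (SD, n = 3), each with an SD above its mean. The part of such cells in the histone values was not tested.

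A pair of members was seen in 1 library only. Hist2h2ab, an H2A gene, had 11 counts in IVV replicate 2 and 0 in the other 14 libraries. Hist1h1t, the H1 gene of spermatocytes, had 12 counts in IVG-NT replicate 3 and 0 elsewhere. With Hist2h2aa2, Hist2h2bb and Hist2h2be they were the 5 genes that did not pass the filter.

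The replication-independent histones had a higher summed level than the replication-dependent ones, between 2271 and 8597 CPM over 18 genes. The libraries were primed on poly(A) tails and these sums are not per length. They therefore do not compare the amounts of the 2 sets of mRNA in the oocyte. H1foo, the linker histone of oocytes, stood between 1497 and 6162 CPM. H3f3b stood between 157 and 1523 CPM, H3f3a between 14.5 and 491 CPM and H2afz between 0 and 165 CPM. All 4 were lower in the rRNA-rich libraries, with log2 fold changes of -0.88 ± 0.22, -1.69 ± 0.28, -1.58 ± 0.47 and -4.57 ± 1.26 (adjusted p = 0.0103, 0.000848, 0.0276 and 0.0184). The tailed H3 genes H3f3a and H3f3b thus fell where most replication-dependent H3 genes lay higher. Of the 14 tested genes of this list, 6 were lower and 0 higher at the adjusted limit (42.9% and 0%, against 15.3% and 8.41% of all genes), and H2afj and H2afv had the smallest p of them, at -4.35 ± 0.42 and -3.56 ± 0.43 (adjusted p = 1.05e-05 and 6.96e-05).

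Of the 24 measured genes that transcribe, process or degrade histone mRNA, 4 were higher and 3 lower in rRNA-rich libraries at the adjusted limit (16.7% and 12.5%, against 8.41% and 15.3% of all genes). Slbp stood between 478 and 1677 CPM, and was lower by -0.81 ± 0.25 (adjusted p = 0.0281). Upf1, a helicase of mRNA decay, and Sympk, a scaffold of the 3′ end cleavage complex, were higher by 3.89 ± 0.32 and 3.23 ± 0.46 (adjusted p = 3.27e-06 and 0.000248). Of the 22 histone chaperones 7 were higher and 6 lower (31.8% and 27.3%), with Npm2 and Asf1a lower by -1.07 ± 0.18 and -2.59 ± 0.53 (adjusted p = 0.000766 and 0.00324). Of the 21 S phase genes 2 were higher and 3 lower (9.52% and 14.3%). Pola1, a subunit of DNA polymerase alpha, and Mki67 were higher by 2.28 ± 0.31 and 1.90 ± 0.33 (adjusted p = 0.000149 and 0.00114).

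Other RNAs that lack a poly(A) tail were read beside the histone genes. Rn7s1 and Rn7s2, the 7SL RNA of the signal recognition particle, were lower in rRNA-rich libraries by -6.23 ± 0.84 and -6.28 ± 0.78 (adjusted p = 0.00016 and 8.76e-05). All 5 tested genes of this list were on the lower side and 3 passed the adjusted limit. The summed snRNA genes ranged from 1.67 to 223 CPM in rRNA-rich and from 7.87 to 52.9 CPM in rRNA-poor libraries, so the kinds overlapped. Of the marker lists, 3 of 13 oocyte markers were higher and 7 lower at the adjusted limit (23.1% and 53.8%), none of 11 granulosa markers passed it (1 at an unadjusted p under 0.05), and 2 of 8 theca and stroma and 1 of 4 macrophage markers were lower. The theca and stroma markers summed to 0 to 32.5 CPM in rRNA-rich and 2.26 to 39.3 CPM in rRNA-poor libraries. The part of other cells in the difference between the kinds was not tested.

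Between the groups, Slbp, H1foo, H3f3a, H3f3b and H2afz were not called in any of the 6 comparisons. Slbp stood at 1154 ± 267 CPM in IVV oocytes, 680.1 ± 272 CPM in IVG and 942 ± 579.7 in IVG-NT oocytes, and at day 6 at 701 ± 216 CPM for IVG and 933 ± 645 for IVG-NT (SD, n = 3). Of the lists of histone and S phase genes, the called genes all lay in comparisons with the IVG-NT day 6 group, in which 11.6% and 12.7% of all genes were called. At day 6, H2afy was higher and Cpsf1 lower with NT-4 (log2 fold changes 2.39 ± 1.11 and -2.22 ± 1.03, adjusted p = 0.425 for both in edgeR). Rpph1 was called higher too, at no count without NT-4 and at most 14 counts in any library. From day 6 to day 10 of IVG-NT, Npat, the coactivator of histone gene transcription, Cpsf1, Sympk and Rrm1, a subunit of ribonucleotide reductase, were called higher, Npat and Cpsf1 by 2.43 ± 1.02 and 2.47 ± 1.04 (adjusted p = 0.362 for both in edgeR) and Rrm1 by 2.24 ± 0.98 (adjusted p = 0.373 in edgeR). These were 3 of 24 histone mRNA genes (12.5%) and 1 of 21 S phase genes (4.76%).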

How the data were processed

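The raw gene counts were deposited by the authors, 1 table per library. Per the labels and the study's methods, cDNA was made by SMART-Seq2, reads were aligned to mm10 with HISAT2 and quantified with StringTie. How reads in near-identical or overlapping genes were counted, with or without strand, is not given in the sources used here. A table of the whole series, which holds the same counts, was not used. Totals lay between 5954262 and 55593251 counts.

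Counts were fitted for all 15 libraries together as group means (edgeR 4.0.16, quasi-likelihood, TMM, filterByExpr with a minimum count of 10), and with the kind of library beside the group for the difference between kinds. A gene was called if its absolute log2 fold change was over 1 with an unadjusted p under 0.05. Adjusted p-values are Benjamini-Hochberg over all 21009 genes. DESeq2 1.42.0 was an alternative. The code of the fit was checked on simulated counts with known changes in chosen genes and the same dispersion in every gene. Those counts differed between the kinds of library in chosen genes only. The check therefore does not show how well changes between groups are found in these libraries. P-values measure the spread between these libraries. Within kinds, means of log2(CPM + 0.5) were compared with no test. Sequences and features came from the GENCODE vM21 transcripts (GRCm38, which is mm10).

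Same-numbered libraries deviated together in IVG-NT against IVG (correlations 0.370, 0.413 and 0.732) and in IVG against IVG day 6 (0.230, 0.147 and 0.538), with every value over 0.1. In these groups the kind of library follows the replicate number, so same-numbered libraries also share their kind. Differently numbered libraries were not compared. The check therefore cannot show a shared run, and the replicate block is read as a shared number only.

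The members, lists, limit of the rRNA share and tests were chosen with earlier results of these data known. Named were the 2 leading genes of each class by level, the members past the adjusted limit or, failing that, up to 2 called genes each way, genes seen in 1 library, and from other lists Slbp, H2afz, H3f3a, H3f3b, H1foo and up to 2 called genes a list. Hist1h2ap, Hist1h3b, Hist2h4, Hist4h4, Sympk in the comparison of days, Csf1r and the genes against their class were named after their values were seen.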

Additional observations from a re-analysis of the deposited data

How the results depend on the processing

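The counts of called histone genes depended on the processing, and the cause was not tested. In brackets after a count stands the count over all genes tested, out of 21009 if not given otherwise. For IVG against IVV (0 called), 2 were called by DESeq2 (534), 2 without the filter (1637 of 36497) and 2 with the replicate block (534). With the kind as a covariate 1 was called (805), and in rRNA-rich libraries alone 1 (431 of 25589). For IVG-NT against IVV (2), 0 were called with the kind as a covariate (906), 4 without the filter (1580 of 36497) and 1 in rRNA-rich libraries (392 of 25589). Hist2h3b reversed, to -0.58 with the kind as a covariate and -5.29 without IVG-NT replicate 1. For IVG-NT against IVG (2), 1 was called with only the 2 groups in the fit (66 of 16727). For IVG-NT day 6 against IVG day 6 (3), 6 were called by DESeq2 (2638), 6 with the kind as a covariate (3312) and 9 of 58 in rRNA-rich libraries (4630 of 25589). With only the 2 groups 0 were called (451 of 14756). Without the 2 shallow libraries, a setting chosen after seeing the data, 0 were called (738 of 27377). For IVG against IVG day 6 (2), 8 were called by DESeq2 (592) and 6 of 47 with only the 2 groups (416 of 16711). With DESeq2 size factors (578), in rRNA-rich libraries (454 of 25589) and with the replicate block (360), 1 each was called. For IVG-NT against IVG-NT day 6 (2), 5 were called by DESeq2 (2739), 10 with the kind as a covariate (3555) and 4 without the filter (4250 of 36497). In rRNA-rich libraries 9 of 58 were called (4986 of 25589), with only the 2 groups 1 (733 of 15666) and without the shallow libraries 1 (657 of 27377). Between the kinds of library (35 called, 22 past the adjusted limit), 10 were called (3125) and 2 passed (328) with the replicate block. That block separates the kind from the number only through IVV replicates 2 and 3. By DESeq2 38 passed (7868), and 12 passed without IVV (2699 of 19272).

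Leaving out 1 library at a time gave 0 to 4 called for IVG against IVV, 1 to 5 for IVG-NT against IVV, 1 to 3 for IVG-NT against IVG, 1 to 14 for IVG-NT day 6 against IVG day 6, 0 to 4 for IVG against IVG day 6, 2 to 15 for IVG-NT against IVG-NT day 6, and 24 to 37 called and 5 to 26 past the adjusted limit between the kinds. The shares over all genes in these fits are not given here, so the ranges are not read as particular to the histone genes. Of the fold changes of named genes under all settings, 1209 kept direction and call, 262 lost the call without turning (Hist2h3b and Rpph1 to 0 where the only libraries of the pair of groups with counts were left out), 12 gained it and 2 reversed. Of the medians over the histone genes, 98 moved by less than the spread between replicates and 10 by more. In every comparison the replicate block is read as a shared number only, since the check cannot show a pairing. The 2 shallow libraries limit what can be detected at day 6 with NT-4.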
